A study of Mus musculus with 43 samples.

Results

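Cells that held both *Drd1* and *Drd2* were compared with cells that held *Drd1* alone among 43 single neurons of the lateral nucleus accumbens that project to the ventral tegmental area (NAcLat→VTA). The classes were chosen by the measured counts themselves. A cell with an estimated count above 0 for both receptors was placed in the Drd1+Drd2 class, and a cell with *Drd1* above 0 and *Drd2* equal to 0 was placed in the Drd1-only class. The rule gave 9 Drd1+Drd2 cells and 34 Drd1-only cells, and 0 cells fell outside both classes. The *Drd1* and *Drd2* counts are therefore a description of the classes and not a finding about them.

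The cells came from C57BL/6 mice fed regular chow (REG, 23 cells, labelled NORM) or given high-fat chow next to regular chow for several weeks (HFD, 20 cells), and all carried retrograde beads from the VTA. The cytosol of each cell was drawn into a patch pipette and sequenced as its own library, so that each library is 1 cell and its depth also reflects how much of the cell was taken up. The study's methods give young mice of both sexes, several per diet, but the mouse of a cell, and with it the sex, is not named. Each class was therefore treated as 1 sample, no test was made between the classes, and the spread over cells is given as the lowest, median and highest value. Cells are named here by diet and a number that follows the order of the deposited records and carries no other meaning.

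Medium spiny neurons are the GABAergic projection neurons of the striatum and are usually divided by their dopamine receptor. D1 receptors, encoded by *Drd1*, couple to stimulatory G proteins and raise cyclic AMP, whereas D2 receptors, encoded by *Drd2*, couple to inhibitory G proteins and lower it. D1 neurons typically co-express dynorphin (*Pdyn*) and substance P (*Tac1*) and supply most of the accumbens input to the midbrain, and D2 neurons typically co-express enkephalin (*Penk*) and an adenosine receptor (*Adora2a*). A smaller population that carries both receptors is known in the accumbens.

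*Drd2* (chromosome 9, 49340627 to 49408177, plus strand, GRCm38) was sparse in most of the 9 cells. Counts are also given per 1000000 counts of the cell (CPM). HFD cell 4 held 140 *Drd2* counts (52.0 CPM), HFD cell 14 held 99 (47.6 CPM) and HFD cell 6 held 35 (37.7 CPM). REG cell 14 held 110 counts, which amounted to 6.50 CPM in the deepest library, and HFD cell 16 held 34 counts (9.82 CPM). HFD cell 11 held 8 counts (4.90 CPM). The remaining cells, REG cell 1, HFD cell 12 and HFD cell 13, held a single *Drd2* count each, at 5.65, 0.701 and 0.711 CPM, and lie just inside the rule. All 34 Drd1-only cells, at 0 counts, lie just outside it. The class can thus be read as 3 cells above 15 CPM, 3 cells between 4.90 and 9.82 CPM that have at least 8 counts, and 3 cells with 1 count.

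Depth limits the negative class as well. A count of 0 allows up to 3 counts, which corresponds to between 0.364 and 16.8 CPM in the Drd1-only cells, with a median of 2.18 CPM. In 27 of the 34 Drd1-only cells this limit lies below 6.50 CPM, the median *Drd2* level of the other class, and in 33 of 34 cells it lies below 15 CPM. The *Drd2* levels of HFD cells 4, 6 and 14 thus lie above this limit in all 34 Drd1-only cells, whereas *Drd2* at the levels of HFD cells 12 and 13 was not detectable at this depth in most of them. When every cell was thinned to 150000 counts in 1 random draw, *Drd2* remained above 0 in 7 of the 9 cells. HFD cells 4, 6 and 14 kept 10, 9 and 7 counts, whereas REG cells 1 and 14 and HFD cells 11 and 16 kept 1 count each.

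*Drd1* (chromosome 13, 54051183 to 54055705, minus strand) was higher than *Drd2* in 9 of 9 cells on both scales. On the TPM scale, which accounts for transcript length, *Drd1* exceeded *Drd2* by a factor of 1.23 in HFD cell 4, 3.72 in HFD cell 6, 10.4 in HFD cell 14, 20.5 in HFD cell 11 and 24.9 in HFD cell 16. The factor was 47.0 in REG cell 14 and between 91.5 and 341 in the cells with a single *Drd2* count. HFD cells 4 and 6 were therefore the cells in which the receptors came closest to each other. *Drd1* ranged from 75.4 to 757 CPM in the Drd1+Drd2 cells, with a median of 342 CPM, and from 0.721 to 842 CPM in the Drd1-only cells, with a median of 194 CPM. The classes overlapped throughout, and within HFD cells the mean was 234 CPM in the Drd1+Drd2 class and 245 CPM in the Drd1-only class. Of the Drd1-only cells, 4 held fewer than 10 *Drd1* counts, and REG cells 10 and 16 held 1 count each.

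**Figure D1:**
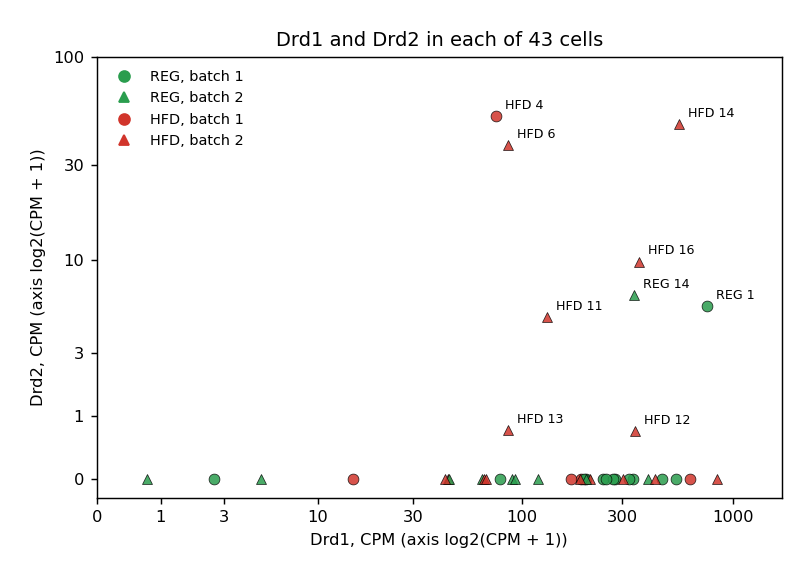
*Drd1* (horizontal axis) against *Drd2* (vertical axis) in CPM for each of 43 cells, on axes of log2(CPM + 1), with diet by colour and batch by symbol. The 9 named cells lie above 0 on the vertical axis, 3 of them above 15 CPM and 2 below 1 CPM, and the 34 Drd1-only cells lie on the line at 0.

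The Drd1+Drd2 cells were unevenly spread over diet and batch. They made up 2 of 23 REG cells and 7 of 20 HFD cells. In batch 2 as given by the labels they were 1 of 10 REG cells (exact 95% binomial interval 0.253% to 44.5%) and 6 of 15 HFD cells (40.0%, 16.3% to 67.7%), and in batch 1 they were 1 of 13 REG cells and 1 of 5 HFD cells. These intervals take the cells as independent and do not cover differences between mice, which are not named. No comparison of the diets is therefore drawn from them. Any comparison over all cells thus also sets mostly HFD cells of batch 2 against a mixture, so values within HFD cells, within each batch and within the HFD cells of batch 2 (6 against 9 cells) are given beside the main results. The REG side holds only cells 1 and 14.

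Depth was similar in both classes over most cells. Drd1+Drd2 libraries held from 176961 counts (REG cell 1) to 16919555 counts (REG cell 14), with a median of 1633600, and Drd1-only libraries held from 178341 to 8242048 counts, with a median of 1375338. The Drd1+Drd2 class thus held both the shallowest and the deepest library of the series. Counts fell on a median of 11186 genes in the Drd1+Drd2 cells and 10062 genes in the Drd1-only cells, and after thinning to equal depth the medians were 7618 and 7521 genes. *Lars2* and *Gm19220*, which take up a large part of each library, held a median of 34.1% and 29.2% of the counts. Mitochondrially encoded genes held a median of 1.40% and 0.894%.

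**Figure D2:**
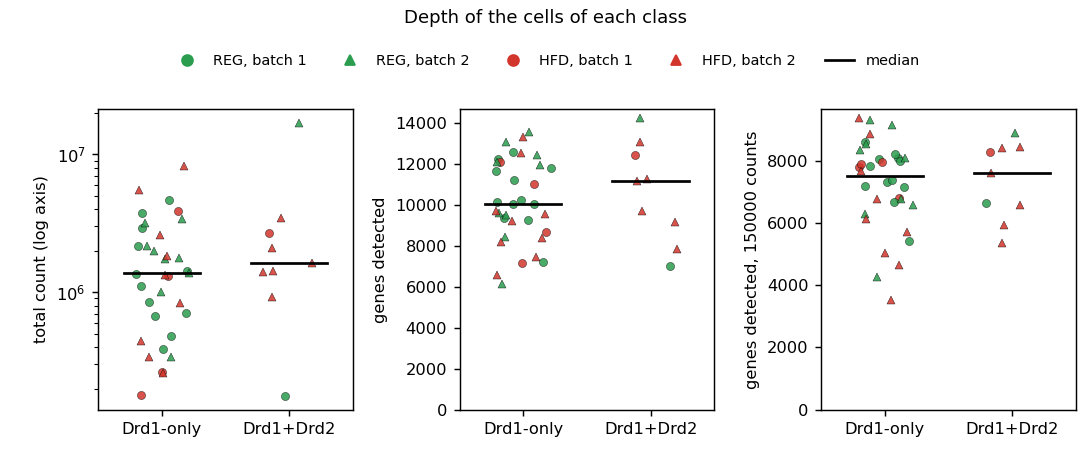
Total count (log axis), genes detected and genes detected after thinning to 150000 counts in each cell of the 34 Drd1-only and 9 Drd1+Drd2 cells, with the median of each class as a bar, diet by colour and batch by symbol. REG cell 14 stands at 16919555 counts, and the thinned medians of 7618 and 7521 genes are close to each other.

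Across all genes, the classes were compared by the log2 ratio of their mean CPM (Drd1+Drd2 over Drd1-only) over 10802 genes, which were those that exceeded 15 CPM in 5 or more cells and averaged over 4 CPM. The ratio had a median of −0.13, with 5th and 95th percentiles of −2.19 and 1.54. A gene was counted as higher or lower when the ratio reached 1 or −1 and kept its sign with any 1 of the 43 cells left out. The ratio alone reached 1 in 1320 genes and −1 in 2044 genes. With the sign condition 942 genes were higher (8.72%) and 2025 genes were lower (18.7%), so the condition removed mostly higher genes. Each Drd1+Drd2 cell weighs more in a mean of 9 cells than a Drd1-only cell in a mean of 34. Of the genes past the rule, 31.7% were higher. With the difference of mean log2(CPM + 1) in place of the ratio of means, 55.0% were higher. With the ratio of means the share was 6.9% within batch 1, 43.5% within batch 2, 19.4% within REG cells and 20.2% without REG cell 14, so it depended on both the measure and the cells. Of the 942 higher genes, 194 had fewer than 5 Drd1-only cells above 15 CPM, and of the 2025 lower genes, 1817 had fewer than 5 Drd1+Drd2 cells above it. The filter thus kept these genes only with the class where they are higher. A limit of 5 cells is harder to reach among 9 cells than among 34, so these 2 numbers cannot be set against each other. The sign was the same within HFD cells and within both batches for 460 of the higher and 1755 of the lower genes. This agreement is no independent support, since these strata reuse the same cells. Within batch 1 (2 against 16 cells) the median ratio was −1.18, so most genes had a negative ratio there. For 0 of the 10802 genes did all 9 Drd1+Drd2 cells lie above, or all lie below, all 34 Drd1-only cells. These counts describe cells and are not counts of genes changed by a condition.

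The summed D2 marker level other than *Drd2* was higher in the Drd1+Drd2 cells, mainly through *Penk*. The summed level of *Adora2a*, *Penk*, *Gpr6* and *Sp9* had a mean of 287 CPM in the Drd1+Drd2 cells and 34.3 CPM in the Drd1-only cells, a log2 ratio of 3.06, or from 2.12 to 3.54 on omission of any single cell. It ranged from 1.32 to 1390 CPM with a median of 126 CPM in the former, and from 0 to 353 CPM with a median of 9.36 CPM in the latter. The ratio was 3.75 within HFD cells, 4.30 within batch 1, 2.45 within batch 2 and 3.42 within the HFD cells of batch 2. *Penk* alone passed the filter on low values and was higher, against 8.72% of all genes, and *Gpr52* is not analysed here.

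*Penk* (chromosome 4, 4133531 to 4138819, minus strand), which encodes the enkephalin precursor, supplied most of this difference. Its mean was 249 CPM in the Drd1+Drd2 cells and 22.9 CPM in the Drd1-only cells. In the Drd1+Drd2 class it stood at 1254 CPM in HFD cell 16, 576 CPM in REG cell 1, 156 CPM in HFD cell 6, 149 CPM in HFD cell 13, 45.3 CPM in HFD cell 4, 31.7 CPM in HFD cell 14, 21.4 CPM in HFD cell 11, 2.66 CPM in REG cell 14 and 0 in HFD cell 12. In the Drd1-only class it ranged from 0 to 101 CPM with a median of 6.01 CPM. The first 4 of the Drd1+Drd2 cells thus lay above every Drd1-only cell, 7 of 9 lay above the Drd1-only median, and 2 lay below it. The log2 ratio was 3.44 over all cells, 3.61 within HFD cells, 4.33 within batch 1, 2.97 within batch 2 and 3.53 within REG cells, and 2.42 without HFD cell 16. The level of *Penk* did not follow that of *Drd2*, since REG cell 1 and HFD cell 13 had high *Penk* beside a single *Drd2* count. Of the 31-base words in *Penk* transcripts, 10.9% also occur in the gene *A830012C17Rik*, whereas *Drd2* and *Adora2a* share no such word with another gene.

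*Adora2a* (chromosome 10, 75316877 to 75334784, plus strand) encodes the adenosine receptor that opposes D2 signalling. In the Drd1+Drd2 class it was detected in HFD cell 16 (116 CPM), HFD cell 6 (52.8 CPM), HFD cell 4 (19.7 CPM) and HFD cell 14 (5.77 CPM). These are the 4 cells with the highest *Drd2* CPM, and *Adora2a* was at 0 in the other 5 Drd1+Drd2 cells. In the same order their *Drd2* stood at 9.82, 37.7, 52.0 and 47.6 CPM, so the cell with the most *Adora2a* had the least *Drd2* of the 4. By *Drd2* count the order differed, since REG cell 14 held 110 counts, more than HFD cells 6, 14 and 16. The *Drd2* values also defined the class, and a relation between these 2 genes was not tested. *Adora2a* was also found outside the class. Among the Drd1-only cells it was detected in 9 of 34, of which REG cell 16 stood at 73.6 CPM and the next highest cell at 10.3 CPM. The mean was 21.6 CPM against 3.14 CPM, a log2 ratio of 2.78 that ranged from 1.64 to 4.42 with any 1 cell left out, and after thinning it was detected in 4 of 9 and 3 of 34 cells. Thus the gene was found in 4 of 7 HFD cells and 0 of 2 REG cells of the Drd1+Drd2 class.

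*Sp9*, a transcription factor needed for D2 neurons to form, was detected in 7 of 9 and 17 of 34 cells. Its highest levels were 42 CPM in HFD cell 6 and 19.7 CPM in HFD cell 16, and the highest Drd1-only cell was REG cell 16 at 19.5 CPM. Its log2 ratio was 2.08 over all cells and −0.95 within batch 1. *Gpr6*, an orphan receptor of D2 neurons, was detected in HFD cells 4 and 6 at 59.4 and 19.4 CPM, and in 4 of 34 Drd1-only cells at up to 208 CPM, with log2 ratios of 0.45 over all cells and −2.10 within batch 2. By detection at any level, at least 2 of the 4 markers were found in 6 of 9 and 19 of 34 cells. At least 2 of the 4 markers exceeded 15 CPM in HFD cells 4, 6 and 16 (3 of 9, 33.3%) and in 1 of 34 Drd1-only cells (2.94%). That cell was REG cell 16, which held a single *Drd1* count, no *Drd2* count, 51.9 CPM of *Penk*, 73.6 CPM of *Adora2a*, 208 CPM of *Gpr6* and 19.5 CPM of *Sp9*. The rule placed it among the Drd1-only cells, where it had the highest summed D2 markers, at 353 CPM. Its summed D1 markers stood at 1097 CPM, and it had the fewest genes detected of its class, at 6143. Without the 4 Drd1-only cells with fewer than 10 *Drd1* counts, which include REG cell 16, the log2 ratio of the summed D2 markers was 3.72 and that of *Adora2a* was 4.29.

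**Figure D3:**
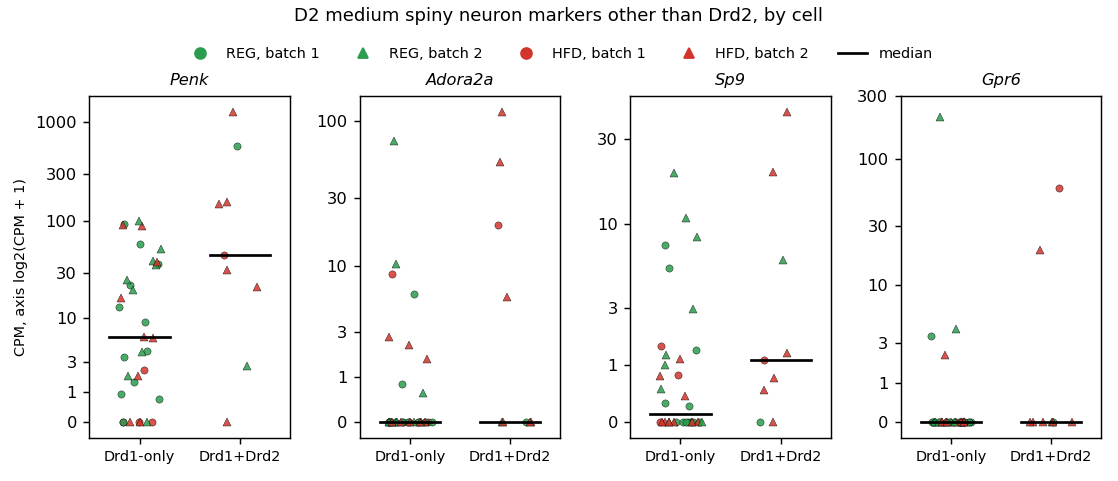
*Penk*, *Adora2a*, *Sp9* and *Gpr6* in CPM, on axes of log2(CPM + 1), for each of the 34 Drd1-only and 9 Drd1+Drd2 cells, with the median of each class as a bar, diet by colour and batch by symbol. In all, 4 Drd1+Drd2 cells lie above the highest Drd1-only cell for *Penk*, and the Drd1-only cell that stands apart for *Adora2a* (73.6 CPM) and *Gpr6* (208 CPM) is REG cell 16.

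D1 markers and general markers of medium spiny neurons mostly did not pass the rule. The ratio of the summed D1 markers differed in sign between HFD and REG cells. Of 8 filtered D1 markers, *Drd1* among them, 0 were higher, 1 was lower and 7 did not pass the rule, with a median log2 ratio of −0.05 against −0.13 over all filtered genes. The shares over all genes were 8.72% higher and 18.7% lower, so 1 lower gene of 8 is near the background. *Pdyn* had a median of 487 CPM in the Drd1+Drd2 cells and 703 CPM in the Drd1-only cells. Its log2 ratio of −0.14 became −1.57 within HFD cells and 1.64 within REG cells. *Tac1* had medians of 625 and 1136 CPM and log2 ratios of −0.56 over all cells, −1.45 within HFD cells and 0.83 within REG cells. REG cell 1 alone held 2475 CPM of *Pdyn* and 3368 CPM of *Tac1*, and HFD cell 13 held 2.84 and 8.53 CPM. The lower gene was *Ebf1*, a transcription factor of developing D1 neurons, with means of 30.3 and 85.3 CPM and a log2 ratio of −1.49, but medians of 18 and 27.5 CPM and a ratio of −0.26 within batch 2. The summed D1 markers overlapped, from 167 to 6617 CPM in the Drd1+Drd2 cells and from 282 to 6513 CPM in the Drd1-only cells. The log2 ratio of this sum was −0.27 over all cells, −1.08 within HFD cells and 1.03 within REG cells. None of the 13 general medium spiny neuron markers and none of the 3 GABAergic markers passed the rule. *Ppp1r1b*, which encodes the phosphatase inhibitor DARPP-32, was detected in 9 of 9 Drd1+Drd2 cells at 419 to 1698 CPM, and *Gad1*, the enzyme that makes GABA, was detected in the same cells at 64.7 to 876 CPM.

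HFD cell 13, singled out after its values were seen, was at the low end of several of these genes. It held 1.42 CPM of *Bcl11b*, *Foxp1*, *Rarb* and *Rgs9*, and 0.711 CPM of *Pde10a*, which are transcription factors and signalling genes of medium spiny neurons. In the other 8 Drd1+Drd2 cells *Pde10a* ranged from 463 to 1300 CPM. The same cell held the highest *Gad1* of its class, at 876 CPM, and 760 CPM of *Ppp1r1b*. Its membership of the class rests on a single *Drd2* count.

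Markers of other cells were present at low or variable levels in both classes, and their part in the results was not tested. Eccentric spiny neurons are striatal cells that differ from both D1 and D2 neurons, and of their 3 filtered markers *Pcdh8* and *Adarb2* were lower, at −2.06 and −1.29, against 18.7% of all genes. *Pcdh8* was detected in 3 of 9 and 9 of 34 cells only, and its ratio was −0.27 within the HFD cells of batch 2. For each of these genes only 1 Drd1+Drd2 cell exceeded 15 CPM, so both passed the filter only with Drd1-only cells. Cholinergic interneurons and dopamine neurons also express *Drd2*. Of the 5 cholinergic markers, *Slc18a3*, *Lhx8* and *Gbx2* were at 0 in all 9 Drd1+Drd2 cells, and *Slc5a7* was detected in 3 of 9 cells at up to 3.23 CPM and in 9 of 34 cells at up to 38.4 CPM. *Chat* was detected in 3 of 9 cells, which included HFD cells 14 (11.1 CPM) and 6 (5.39 CPM) of the 3 cells with the most *Drd2*, and in 2 of 34 cells at up to 131 CPM. Of the 4 dopamine neuron markers, *Slc6a3* was at 0 in all 43 cells. *Th* was detected in 2 of 9 cells at up to 3.47 CPM and in 1 of 34 cells, *Slc18a2* in 2 of 9 and 10 of 34 cells, and *Ddc* in 5 of 9 cells at up to 40.9 CPM and in 17 of 34 cells at up to 29.2 CPM. Of 4 filtered interneuron markers only *Npy* was higher, against 8.72% of all genes. It had counts in 7 of 9 and 6 of 34 cells and a log2 ratio of 2.30. *Npy* exceeded 15 CPM in 4 Drd1+Drd2 and 3 Drd1-only cells, so it passed the filter only with the class where it is higher. Its mean of 32 CPM was set by 206 CPM in HFD cell 13, without which the ratio was 0.65, and the ratio was 5.63 within HFD cells but −0.26 within batch 1.

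Among glial markers, 3 of 5 filtered microglial genes were higher, namely *P2ry12* (1.80), *Csf1r* (1.32) and *C1qa* (1.54), against 8.72% of all genes. *P2ry12* exceeded 15 CPM in 3 Drd1+Drd2 and 4 Drd1-only cells, so it passed the filter only with the class where it is higher. Within REG cells *Csf1r* and *C1qa* stood at −1.36 and −2.24 and *P2ry12* was at 0 in both Drd1+Drd2 cells, and *Cx3cr1*, which did not pass the filter, had a ratio of −2.04 over all cells. The summed microglial markers ranged from 7.23 to 1467 CPM in the Drd1+Drd2 cells and from 0.341 to 1326 CPM in the Drd1-only cells. Their log2 ratio was 0.66 over all cells, −0.57 within batch 2 and −0.49 without HFD cell 4, which held the highest sum. Of the 4 filtered genes analysed for the oligodendrocyte lineage, the precursor marker *Cspg4* was lower, against 18.7% of all genes, and 3 did not pass the rule. The sum ranged from 0.867 to 1642 CPM against 0 to 1115 CPM. The log2 ratio of this sum, 0.48, became −0.65 on omission of HFD cell 14, which held the highest value. Of 3 filtered astrocyte markers, *Slc1a3* was lower (−1.38), against 18.7% of all genes, but its medians were 1.02 and 1.33 CPM. *Slc1a3* and *Cspg4* exceeded 15 CPM in 1 and 0 Drd1+Drd2 cells, so both passed the filter only with Drd1-only cells. The sums were 3.12 to 590 CPM against 2.59 to 773 CPM for astrocyte markers and 18.6 to 1379 CPM against 44.8 to 4078 CPM for endothelial markers. Of the 5 endothelial markers, *Pecam1* was detected in 9 of 9 cells at 14 to 1379 CPM and made up most of the sum, *Kdr* and *Flt1* were detected in 5 of 9 cells each at up to 5.39 and 5.65 CPM, and *Cldn5* and *Cdh5* were at 0 in the Drd1+Drd2 cells and counted in 1 Drd1-only cell each. In HFD cell 16, which held the most *Penk*, the microglial sum was the second highest of the class at 524 CPM, and the highest astrocyte sum was in HFD cell 13, which also had high *Penk*.

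The other dopamine receptors were nearly absent. *Drd3*, *Drd4* and *Drd5* were at 0 in all 9 Drd1+Drd2 cells and were counted in 1, 1 and 2 of 34 Drd1-only cells. Genes of dopamine receptor signalling downstream of the receptors were mostly alike in level, with 4 higher, 1 lower and 35 not past the rule among 40 filtered genes, and a median log2 ratio of −0.07. The number of higher members is close to the 8.72% of all genes and the number of lower members is below the 18.7%. The higher genes were *Gnas*, which encodes the stimulatory G protein subunit, *Arrb1* and *Arrb2*, which encode the arrestins that bind activated receptors, and *Akt1*, a kinase downstream of arrestin. *Gnas* ranged from 66.4 to 707 CPM with a median of 236 CPM in the Drd1+Drd2 cells, and had a median of 52.2 CPM in the Drd1-only cells. All 9 cells lay above that median, and the log2 ratio was 1.39, with 1.24 within HFD cells, 0.81 within batch 2 and 0.86 within the HFD cells of batch 2. *Arrb2* (2.24), for which 4 Drd1-only cells exceeded 15 CPM, and *Akt1* (2.22) rested on fewer cells, since 67.2% of the summed CPM of *Arrb2* came from HFD cell 13 and 69.2% of that of *Akt1* from REG cell 1. *Arrb1* had a ratio of 1.17 over all cells and 0.35 within batch 2. The lower gene was *Kcnj9*, a subunit of the potassium channels that G proteins open. It had counts in 5 of 9 and 22 of 34 cells and a ratio of −1.06. Only 1 Drd1+Drd2 cell exceeded 15 CPM, so *Kcnj9* passed the filter only with Drd1-only cells. Among genes with no call, *Gnal*, the olfactory-type stimulatory subunit that striatal D1 receptors use, had a ratio of −0.29, and *Adcy5*, the main striatal adenylyl cyclase, had −0.23.

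**Figure D4:**
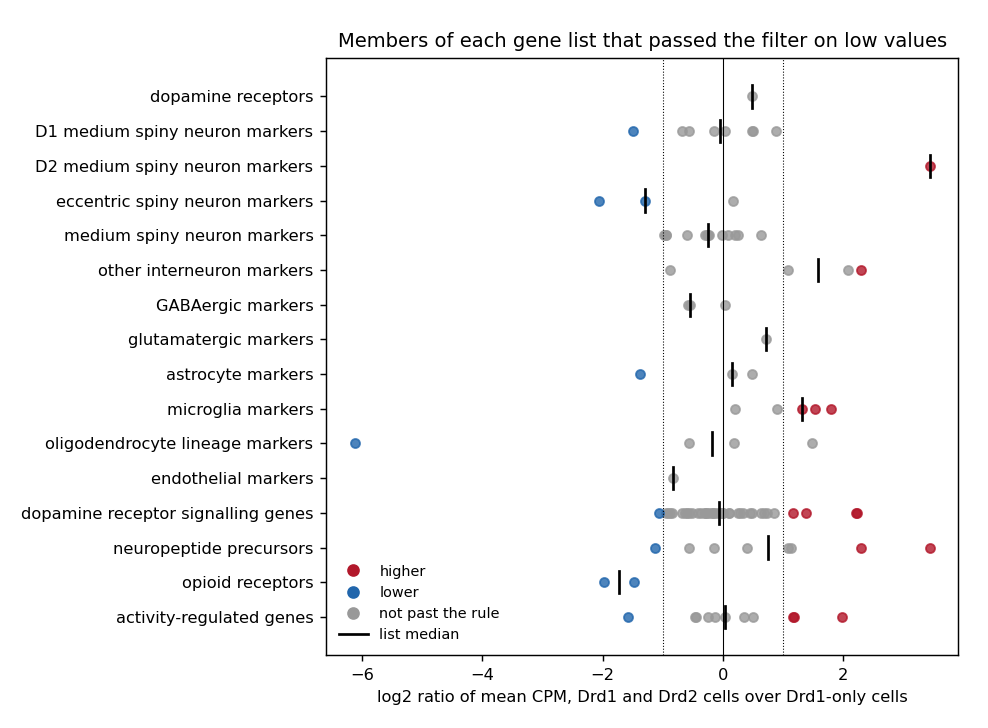
Log2 ratio of mean CPM (Drd1+Drd2 over Drd1-only cells, horizontal axis) for each filtered member of 16 gene lists, with the list median as a bar, members past the rule in red (higher) or blue (lower) and dotted lines at −1 and 1. *Penk* stands at 3.44, none of the 13 medium spiny neuron markers passed the rule, and both filtered opioid receptors lie below −1. Both of these receptors passed the filter only with Drd1-only cells.

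Of 8 filtered neuropeptide precursors, *Penk* and *Npy* were higher and *Nts* was lower, against 8.72% and 18.7% of all genes. *Nts*, which encodes neurotensin, ranged from 1.42 to 589 CPM in the Drd1+Drd2 cells with a median of 220 CPM, and had a median of 194 CPM in the Drd1-only cells with a highest value of 3107 CPM. Its log2 ratio was −1.12 over all cells, −1.39 within REG cells, −0.02 within HFD cells and −0.39 within the HFD cells of batch 2. The lower mean over all cells was thus found within REG cells and not within HFD cells. In the Drd1+Drd2 class the REG value rests on cells 1 and 14, at 28.3 and 589 CPM. The REG medians went the other way, at 309 CPM in the Drd1+Drd2 cells and 285 CPM in the Drd1-only cells. *Nts* was detected in 9 of 9 Drd1+Drd2 cells and 31 of 34 Drd1-only cells.

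Both opioid receptor genes that passed the filter were lower in the Drd1+Drd2 cells over all cells but not within REG cells. *Oprk1*, the kappa receptor that dynorphin binds, and *Oprl1*, the nociceptin receptor, were the 2 filtered members, against 18.7% of all genes lower. Above 15 CPM were 3 Drd1+Drd2 and 16 Drd1-only cells for *Oprk1*, and 2 and 12 cells for *Oprl1*. Both genes therefore passed the filter only with the class where they are higher. *Oprk1* stood at 197 CPM in REG cell 14 and between 0 and 31.2 CPM in the other 8 cells, and ranged up to 539 CPM in the Drd1-only cells, with medians of 5.67 and 11.6 CPM. Its log2 ratio was −1.48 over all cells and −4.07 within HFD cells, where the means were 8.28 and 139 CPM, but 1.19 within REG cells. Without REG cell 14 the ratio over all cells was −3.34. *Oprl1* was detected in 5 of 9 and 20 of 34 cells, with means of 16.5 and 64.8 CPM and log2 ratios of −1.97 over all cells and −3.38 within HFD cells, and 0.20 within REG cells. The summed list had ratios of −1.67 over all cells and 0.74 within REG cells. The ranges of both genes overlapped, since Drd1-only cells reached down to 0. *Oprm1*, the mu receptor, and *Oprd1*, the delta receptor that enkephalin also binds, did not pass the filter.

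Of 11 filtered activity-regulated genes, 3 were higher, 1 was lower and 7 did not pass the rule, against 8.72% and 18.7% of all genes. *Dusp1* (1.18), *Fosl2* (1.16) and *Btg2* (1.99) were higher, and the transcription factor *Npas4* was lower (−1.58). The medians of *Npas4* were 35.6 and 35.2 CPM, and the highest Drd1-only cell held 905 CPM. Its ratio was −0.20 within the HFD cells of batch 2. *Fos* and *Arc* did not pass the rule, at −0.44 and 0.36. Within batch 1, where the Drd1+Drd2 class held only REG cell 1 and HFD cell 4, *Dusp1* stood at −1.37, *Fosl2* at −0.46 and *Btg2* at 0.02. Within REG cells *Fosl2* stood at −3.89 and *Btg2* at −2.98.

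To find genes with a difference in most cells rather than in a few, the share of all pairs of 1 Drd1+Drd2 cell and 1 Drd1-only cell in which the former was higher was computed, with ties counted as 0.5. Its median over all filtered genes was 50.3%, and it reached at least 80% in 18 genes and at most 20% in 8. Genes were ranked by this share only among those past the rule with the same sign within HFD cells and both batches. Higher genes also needed detection in at least 5 Drd1+Drd2 cells, and lower genes in at least 17 Drd1-only cells. Among these, the highest shares belonged to *Psat1* (89.7%), *Ypel5* (86.6%), *Gm15500* (86.3%), *Rnf187* (85.9%), *Oard1* (83.5%) and *Snrpd2* (83.3%).

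*Psat1* (chromosome 19, 15904678 to 15947337, minus strand) encodes the aminotransferase of serine synthesis. It stood at 239 CPM in REG cell 14, 106 CPM in HFD cell 16, 74.3 CPM in HFD cell 12, 57.1 CPM in HFD cell 6, 46.5 CPM in HFD cell 11, 7.82 CPM in HFD cell 13, 6.73 CPM in HFD cell 14, 5.65 CPM in REG cell 1 and 0 in HFD cell 4. It was thus detected in 8 of 9 cells and spread over both diets. In the Drd1-only cells it was detected in 7 of 34, with a median of 0 and a highest value of 50.0 CPM, and 1 of these cells lay above the Drd1+Drd2 median. The means of 60.4 and 3.39 CPM gave a log2 ratio of 4.16, which stayed from 3.49 to 4.93 on omission of any single cell and was 3.40 within HFD cells, 3.60 within batch 2. Batch 1 held only 1 count of the gene in its Drd1+Drd2 cells, in REG cell 1. Above 15 CPM were 5 Drd1+Drd2 and 2 Drd1-only cells, so the gene passed the filter only through the class where it is high. After thinning it was detected in 6 of 9 and 3 of 34 cells. The gene was chosen for this pattern from the genes past the rule, so its values describe these cells only.

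The other genes of this group were detected in all 9 Drd1+Drd2 cells, apart from *Oard1*. *Rnf187*, a RING-type ubiquitin ligase, ranged from 170 to 1234 CPM with a median of 544 CPM against a median of 177 CPM, and 8 of 9 cells lay above the latter. *Ypel5* had medians of 187 and 60.0 CPM, *Snrpd2*, a core protein of the spliceosome, had 72.2 and 21.2 CPM, and all 9 Drd1+Drd2 cells lay above the Drd1-only median for both. *Oard1*, which removes ADP-ribose from proteins, was detected in 8 of 9 and 9 of 34 cells, with a log2 ratio of 2.34. *Gm15500* is a processed pseudogene that shares 99.9% of its 31-base words with other genes, *Rpl5* among them, so its counts are uncertain.

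Among the ranked lower genes, the lowest shares belonged to *Atg13* (16%), *2510002D24Rik* (17.2%), *Naaa* (17.3%), *Srgap3* (18%), *Ddx41* (18.6%) and *Agtpbp1* (19.3%). For *Atg13*, *2510002D24Rik*, *Naaa* and *Ddx41*, no more than 2 Drd1+Drd2 cells exceeded 15 CPM, so these genes passed the filter only with Drd1-only cells. *Atg13*, part of the complex that starts autophagy, had medians of 6.10 and 46.3 CPM, and 0 of 9 Drd1+Drd2 cells lay above the Drd1-only median. Its log2 ratio was −3.64, with −3.68 within HFD cells, −2.69 within batch 1 and −4.02 within batch 2. *Srgap3*, a GTPase-activating protein for Rac, and *Agtpbp1*, a carboxypeptidase that trims glutamates from tubulin, were detected in all 43 cells. *Srgap3* ranged from 1.23 to 88.4 CPM with a median of 21.3 CPM in the Drd1+Drd2 cells and had a median of 78.2 CPM in the others, and *Agtpbp1* had medians of 17 and 75.4 CPM. The log2 ratios of −1.97 and −1.52 became −0.37 and −1.13 within the HFD cells of batch 2. *Naaa*, an enzyme that degrades fatty acid amides, was detected in 3 of 9 cells at no more than 3.90 CPM and in 28 of 34 cells. *Ddx41*, an RNA helicase, was detected in 3 of 9 and 29 of 34 cells, with a ratio of −3.70.

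**Figure D5:**
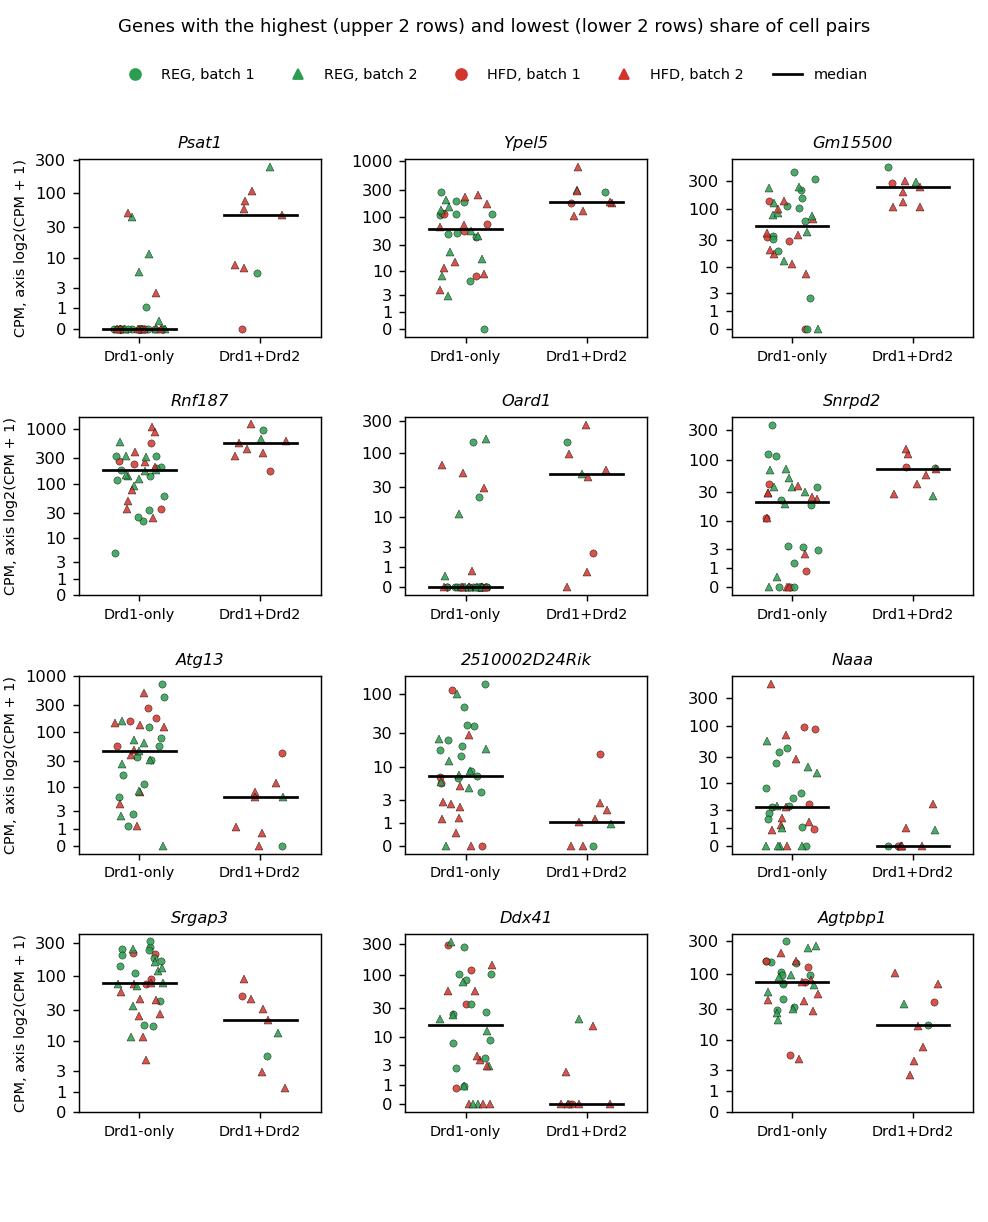
CPM, on axes of log2(CPM + 1), of the 6 genes with the highest (upper rows) and the 6 with the lowest (lower rows) share of cell pairs in which the Drd1+Drd2 cell was higher, for each of the 34 Drd1-only and 9 Drd1+Drd2 cells, with the median of each class as a bar. The genes were ranked only among those past the rule with the same sign within HFD cells and both batches. The classes overlap for every gene, and *Psat1* is at 0 in most Drd1-only cells and above 0 in 8 of 9 Drd1+Drd2 cells.

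The genes with the largest ratios rested mostly on single cells. Among higher genes with the same sign within HFD cells and both batches and counts in at least 5 Drd1+Drd2 cells, the highest ratios were those of *Lyz2* (4.92), *Luzp2* (4.34), *Map6d1* (4.21), *Psat1* (4.16), *E130308A19Rik* (3.97), *Itih5* (3.87), *Supt3* (3.49) and *Penk* (3.44). Apart from *Penk*, no more than 4 Drd1-only cells exceeded 15 CPM for any of them, so these genes passed the filter only through the Drd1+Drd2 cells, which favoured their rank. HFD cell 13 held 1595 CPM of *Lyz2*, the lysozyme of myeloid cells, or 89.5% of the summed CPM of its class, and it also held 605 CPM of *Luzp2*, 948 CPM of *E130308A19Rik*, 385 CPM of *Itih5* and 542 CPM of *Supt3*. REG cell 1 held 978 CPM of *Map6d1*, or 88.1% of the sum. With any 1 cell left out, the ratio of *Lyz2* reached down to 1.83, that of *Map6d1* to 1.31 and that of *E130308A19Rik* to 0.77. Only *Psat1*, *Penk* and *Luzp2* stayed above 2, at 3.49, 2.42 and 2.55. Within REG cells (2 against 21), *Lyz2* and *E130308A19Rik* had ratios of −8.36 and −3.07.

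The lowest ratios, among genes with counts in at least 17 Drd1-only cells, came from genes with few counts in the Drd1+Drd2 cells. None of the 9 cells exceeded 15 CPM for any of the 8 lowest genes. The filter kept these genes only with Drd1-only cells, which favoured their rank. *Crispld1* and *Yipf2* had 1 count each over the 9 cells, against 508 and 956 counts over 18 and 19 Drd1-only cells. The log2 ratio of summed counts over summed totals was −7.92 for *Crispld1* (exact 95% Poisson interval −13.23 to −5.43) and −8.83 for *Yipf2* (−14.14 to −6.35). *Rerg* had 2 counts against 1294 (−8.27, −11.32 to −6.41), *Hsd17b7*, an enzyme of cholesterol synthesis, had 3 against 1481 (−7.88, −10.16 to −6.33), and *Cspg4*, a marker of oligodendrocyte precursors, had 3 against 251 (−5.32, −7.60 to −3.75). These intervals cover counting error only and not the spread between cells, and the genes were picked for their low ratios. In the Drd1-only class these genes were themselves uneven, with a median of no more than 1.40 CPM beside highest values of 73.6 to 548 CPM. *Glod4*, *Fastkd5* and *Otulin* had 8, 5 and 9 counts against 4306, 852 and 1377. Of the 31-base words of *Yipf2*, *Glod4* and *Fastkd5*, 45.1%, 56.8% and 64.9% also occur in other genes, so the division of their reads is uncertain.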

How the data were processed

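Patch-sequencing libraries of 43 NAcLat→VTA cells (23 REG, 20 HFD) were analysed. The authors pseudo-aligned reads with kallisto to the mouse transcriptome (GRCm38), summed transcripts to genes and left out libraries of low depth or few genes. The deposited estimated counts are not normalized, and the deposited TPM values sum to 1000000 in each cell; both cover 35825 genes. CPM was the count over the total of the cell. Depth is the total count per cell, from 176961 to 16919555. Exact 95% Poisson intervals cover counting error only, because amplified reads are not independent molecules. Exact 95% binomial intervals take cells as independent and do not cover differences between mice. Cells were grouped by their *Drd1* and *Drd2* counts. Since the mouse of a cell is not named, no test was made. No doublet caller was run, as each library came from 1 pipette.

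Genes named were the members of the marker and pathway lists, the 8 highest and 8 lowest ratios past the rule with one sign within HFD cells and both batches, and the 6 highest and 6 lowest shares of cell pairs. The cell classes and the lists were chosen with earlier results of these data known, and 1 listed marker is not reported here. Filtering followed the limits stated in the study's methods. Shared 31-base words were counted in GENCODE transcripts of the same build, which also gave the coordinates. The ratio was tested on simulated data. Alternatives covered TPM, TMM factors (edgeR 4.0.16), size factors (DESeq2 1.42.0), other totals, filters and detection limits, each batch, each diet, and leaving out each Drd1+Drd2 cell. Software comprised R 4.3.3, scipy 1.17.1, pandas 2.3.3, numpy 2.4.6, Python 3.11.15 and, for plots, matplotlib 3.10.9.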

Additional observations from a re-analysis of the deposited data

Results flagged for a closer look

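Within the 9 Drd1+Drd2 cells, 51 measures (depth, summed lists and named genes) were examined for a single cell whose gap to the nearest other cell was a larger part of the whole range than Dixon's 95% critical value, which chance passes in about 1 of 20 groups. Gene levels in single cells are skewed, and 27 measures passed. No cause was tested.

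REG cell 14 stood apart in total count (16919555, next 3460933), in summed opioid receptors (273 CPM, next 76.4), in *Psat1* (239 CPM, next 106) and in *Crispld1*, where 0.0668 CPM was the only value above 0. HFD cell 16 stood apart in summed D2 markers (1390 CPM, next 576), *Penk* (1254 CPM, next 576) and *Adora2a* (116 CPM, next 52.8). HFD cell 13 stood apart in *Lyz2* (1595 CPM), *Luzp2* (605 CPM), *E130308A19Rik* (948 CPM), *Itih5* (385 CPM), *Supt3* (542 CPM), *Ypel5* (779 CPM) and *Naaa* (3.90 CPM). HFD cell 4 stood apart in summed microglial markers (1467 CPM, next 524), *Atg13* (41.5 CPM), *2510002D24Rik* (15.2 CPM), *Fastkd5* (1.86 CPM) and *Otulin* (2.23 CPM). HFD cell 14 stood apart in summed markers of the oligodendrocyte lineage (1642 CPM) and in *Cspg4* (0.962 CPM). HFD cell 11 stood apart in summed endothelial markers (1379 CPM, next 418) and *Glod4* (3.06 CPM). REG cell 1 stood apart in *Map6d1* (978 CPM) and *Gm15500* (519 CPM), HFD cell 6 in summed dopamine neuron markers (40.9 CPM, from *Ddc*), and HFD cell 12 in *Yipf2* (0.808 CPM).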

How the results depend on the processing

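The class held 9 cells with a limit of 1 count or of any TPM above 0, 7 after thinning, 5 with at least 10 *Drd2* counts and 3 with a CPM above 15. The counts of 942 higher and 2025 lower genes and the median ratio of −0.13 changed little with TPM, TMM factors, size factors and totals without *Lars2* and *Gm19220* (950 to 1055 higher, 1917 to 2097 lower). Without a filter there were 1781 and 5973 genes with a median of −0.43, and with CPM above 15 in at least 10 cells 626 and 1279. Within batch 1 (2 against 16 cells) there were 424 higher and 5727 lower genes with a median of −1.18, within batch 2 1456 higher with a median of 0.06, and within the HFD cells of batch 2 1881 higher with a median of 0.01. Within REG cells (2 against 21) 3926 genes were lower. The last 2 comparisons, and the limits on single counts of either receptor, were chosen after the data were seen. The median was −0.24 within HFD cells. On mean log2(CPM + 1) there were 1094 lower genes and a median of 0.02. Leaving out 1 of the 9 cells gave 719 to 1034 higher and 2108 to 2844 lower genes and medians from −0.31 (without REG cell 14) to −0.09. Of 47 named genes past the rule, 35 kept their sign under all alternatives run and 12 did not. *Npy* (−0.26), *Fosl2* (−0.46) and *Dusp1* (−1.37) turned within batch 1, *Csf1r* within batch 2 (−0.19) and its HFD cells (−0.48), and *Supt3* (−0.10) and *Npy* (−0.19) with at least 10 *Drd2* counts. Within REG cells *Lyz2* (−8.36), *E130308A19Rik* (−3.07), *Supt3* (−0.34), *Npy* (−0.24), *Csf1r* (−1.36), *C1qa* (−2.24), *Fosl2* (−3.89), *Btg2* (−2.98), *Oprk1* (1.19) and *Oprl1* (0.20) turned, and *P2ry12* was at 0 in the Drd1+Drd2 cells; the cause was not tested. No paired analysis was possible because neither cells nor mice are matched in the labels.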
